A study of Drosophila melanogaster with 6 samples.

Results

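CrebA and 5 regulators of the unfolded protein response were measured in larval salivary glands (SG) and in brains plus imaginal discs (B-D) of Drosophila melanogaster. The genes were taken by symbol from the gene counts, and all 6 of them (CrebA, Xbp1, Ire1, PEK, Atf6 and crc) were found among the 17493 genes counted. Every library came from larvae of the strain y1 w67c23 in the third instar, which were still feeding, raised at 25 °C and dissected 4 days after an egg collection of 6 h, with 3 libraries of polyadenylated RNA for each tissue. SG is labelled by its endoreplicating cells and B-D as mitotic, so a secretory tissue in endocycles is set against tissue in mitotic cycles. The study describes both tissues as dissected from the same larvae. The larvae carried no transgene or treatment according to the labels, and the number of animals in a library is not given in the sources used here.

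Cells that export much protein need a large endoplasmic reticulum (ER), and the genes here adjust it. CrebA is a bZIP transcription factor of the CREB3 family that raises genes of the secretory pathway in the embryonic salivary gland and other secretory cells of the fly. The unfolded protein response senses misfolded protein in the ER lumen through 3 membrane proteins. Ire1, a kinase and RNase, cuts an intron out of Xbp1 mRNA so that a potent bZIP activator is translated. PEK, the fly PERK, phosphorylates the translation factor eIF2alpha, which slows most translation and favours that of crc, the fly ATF4. Atf6 is a bZIP factor held in the ER membrane, which in mammals is freed by proteolysis in the Golgi. Gene counts give the amount of mRNA and cannot show splicing of Xbp1, phosphorylation by PEK, translation of crc or cleavage of Atf6.

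CrebA lies on 3L from 15535395 to 15553214, crc on 2L from 21310866 to 21319527, PEK on 3R from 5458563 to 5464753, Ire1 on 3R from 19853908 to 19861291, Xbp1 on 2R from 21143545 to 21145750 and Atf6 on 2R from 5144733 to 5154756 (Release 6). All 6 are protein coding, and reads were counted over their exons. Exons of CrebA, Xbp1, PEK and Atf6 overlap no other annotated exon. For Ire1, 12.3% of exon length lies under exons of MICU3 on the other strand, and MICU3 had 724 to 2104 counts per library against 3812 to 4962 for Ire1. For crc, 73.5% of exon length is shared with CG46314, a gene on the same strand whose exons lie wholly inside crc. CG46314 had 0 counts in every library, and how reads under both genes were treated is not given in the sources used here, so the level of crc is uncertain.

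Total counts were between 45023997 and 56583711 per library, and the members had from 1945 to 27863 counts in a library. Levels are given as CPM, a gene's counts relative to a fixed total per library, after scaling of the libraries with the trimmed mean of M values (TMM) unless called unscaled. The choice of scale matters here. The TMM factors were 0.664 to 0.700 in SG and 1.458 to 1.466 in B-D. With library size alone, the median log2 fold change of all genes moved by -1.10. The SG libraries also held fat body transcripts: 8 of 8 fat body markers were called higher in SG, and together they took 13.1% to 18.5% of the counts in SG against at most 0.643% in B-D. The fat body is itself a secretory tissue, so its RNA may carry members too, and its part in the results was not tested. Neuron markers, 8 of 8 lower in SG, summed to 168 to 317 CPM in SG and 2158 to 2631 CPM in B-D. For a mixed tissue, fewer cells of a type and less RNA per cell cannot be told apart.

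CrebA and Xbp1 were much higher in SG, Ire1 and crc were about 2.13-fold and 1.97-fold higher, Atf6 was slightly higher, and PEK was not called. Calls needed an adjusted p of at most 0.05 (edgeR's quasi-likelihood test, Benjamini-Hochberg adjustment over 11369 genes) together with a log2 fold change, SG over B-D throughout, of 0.5 or more in either direction. By this rule 5 of the 6 members were higher in SG and 0 lower, where 34.5% of all genes tested were higher and 35.3% lower. The same 5 of 6 were higher with DESeq2, where 34.6% of all genes were higher and 35.8% lower. All 6 members passed the filter on low counts.

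CrebA showed the greatest difference. It stood at 32.9, 29.3 and 39.9 CPM in B-D replicates 1 to 3 and at 245, 347 and 592 CPM in SG replicates 1 to 3. Every SG library lay far above every B-D library, and within SG replicate 3 was well above the others. B-D averaged 34.03 ± 5.38 CPM and SG 395 ± 179 CPM (SD, n = 3), an 11.6-fold difference (log2 fold change 3.54 ± 0.37 SE, adjusted p = 2.97e-04 by edgeR). Of all genes tested, 609 had a larger log2 fold change. Without SG replicate 3 the log2 fold change of CrebA was 3.14, and with SG replicate 2 as the lone SG library, which is then assumed to vary like B-D, it was 3.37.

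Xbp1, the target of Ire1, was the most abundant of the 6 in SG on the counts as deposited, before and after correction for length. Its place above crc is uncertain, since crc would lie higher per kb if reads shared with CG46314 were not counted. The levels of Xbp1 were 168, 150 and 153 CPM in B-D and 751, 671 and 722 CPM in SG. The libraries of each tissue were close together and the tissues were far apart. The means of 157 ± 9.70 and 715 ± 40.5 CPM (SD, n = 3) gave a log2 fold change of 2.18 ± 0.10 SE (adjusted p = 3.29e-05 by edgeR). Counts of spliced and unspliced Xbp1 mRNA are pooled in these values.

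Ire1 was at 59.8, 60.4 and 61.3 CPM in B-D and at 134, 123 and 130 CPM in SG. This was the most even of the 6 genes in B-D, with a coefficient of variation of 1.244%. The log2 fold change was 1.09 ± 0.07 SE (adjusted p = 6.85e-05 by edgeR). Unscaled, though, Ire1 stood at 87.2 to 89.9 CPM in B-D and at 84.7 to 91.1 CPM in SG, and the tissues overlapped.

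With TMM scaling the other ER sensors differed little between tissues. PEK was at 83.3, 78.5 and 79.5 CPM in B-D and at 92.6, 85.8 and 95.3 CPM in SG. The tissues did not overlap but were separated by less than the range within SG. Its log2 fold change of 0.18 ± 0.08 SE missed both thresholds (adjusted p = 0.0702 by edgeR). DESeq2 gave an adjusted p of 0.0396, with a log2 fold change of 0.17 that was under the threshold as well. Atf6 was at 58.9, 59.2 and 63.4 CPM in B-D and at 83.9, 81.4 and 105 CPM in SG, where replicate 3 again was the highest. Its log2 fold change was 0.58 ± 0.12 SE (adjusted p = 0.00504 by edgeR). This call rests on SG replicate 3: without it the log2 fold change was 0.47, under the threshold of 0.5.

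The ATF4 gene crc was abundant in both tissues. Its levels were 244, 240 and 262 CPM in B-D and 466, 484 and 518 CPM in SG, with no overlap. The log2 fold change was 0.98 ± 0.09 SE (adjusted p = 2.03e-04 by edgeR). Unscaled, crc stood at 351 to 384 CPM in B-D and at 309 to 363 CPM in SG, with overlap.

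**Figure D1:**
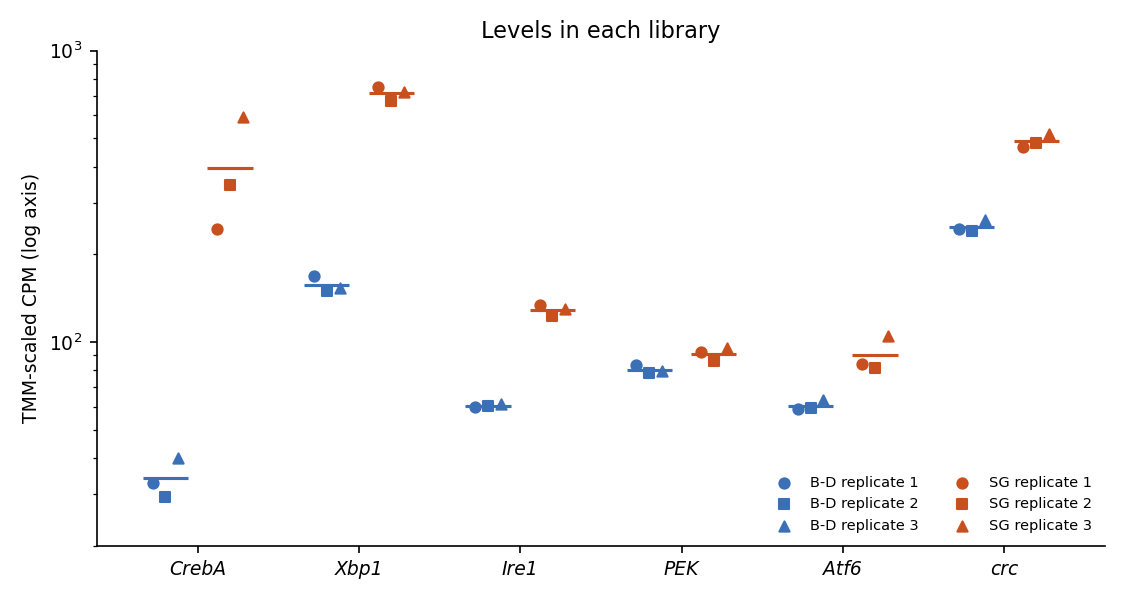
TMM-scaled CPM (log axis) of the 6 genes in each library, with B-D in blue and SG in orange, a marker for each replicate and a bar at the mean of 3 libraries. CrebA spans 29.3 to 39.9 CPM in B-D and 245 to 592 CPM in SG, while PEK spans 78.5 to 83.3 and 85.8 to 95.3 CPM.

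Which members were higher depended on the scale for 4 of the 6. With TMM scaling every SG library was above every B-D library for all 6 members, which held for 39.9% of all genes tested, while the tissues did not overlap in one direction or the other for 81.2%. On unscaled CPM SG lay above B-D for CrebA and Xbp1 alone among the 6, and for 16.7% of all genes, whereas PEK and Atf6 lay below it. With library size alone in edgeR, CrebA (log2 fold change 2.45 ± 0.37 SE, adjusted p = 0.00109) and Xbp1 (1.09 ± 0.09 SE, adjusted p = 9.57e-05) were still called higher. PEK (-0.91, adjusted p = 1.13e-04) and Atf6 (-0.52, adjusted p = 0.0110) were then called lower, and Ire1 (-0.01) and crc (-0.12) were not called. Under that scale 14.0% of all genes were higher and 62.5% lower. Upper quartile scaling left 4 members higher and 0 lower, with Atf6 at 0.39 and PEK at -0.01, where 30.2% of all genes were higher and 39.6% lower. Against the median of all genes, which shifts along with the scale, the TMM values of PEK and Atf6 stood 0.22 and 0.61 higher, and that of CrebA 3.57 higher.

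**Figure D2:**
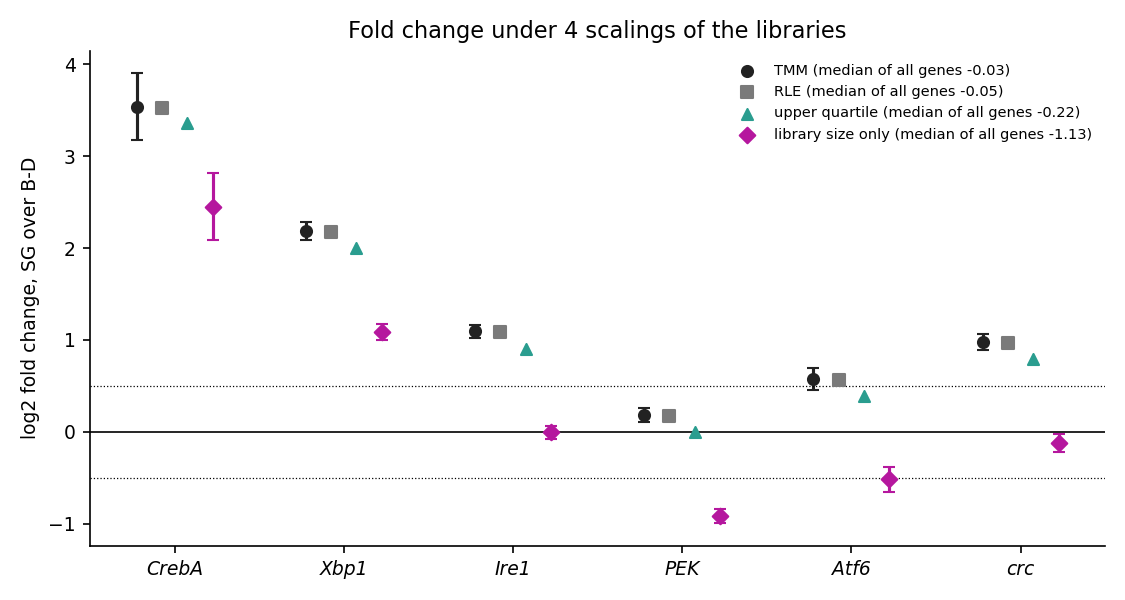
Log2 fold change of SG over B-D for each gene under 4 scalings of the libraries, with the SE of the fit as bars for TMM and for library size alone and dotted lines at 0.5 and -0.5. CrebA and Xbp1 stay above the upper line under each scaling, whereas PEK falls from 0.18 to -0.91 and Atf6 from 0.58 to -0.52 with library size alone.

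Ratios of members within a library do not depend on the scale. Per base of exon, the log2 ratio of CrebA to PEK was -1.22, -1.31 and -0.88 in B-D and 1.52, 2.13 and 2.75 in SG. CrebA was thus the rarer mRNA of this pair in each B-D library and the more abundant in each SG library. The ratio rose by 3.27 on the log2 scale. Xbp1 to PEK went from 2.15 ± 0.04 to 4.16 ± 0.05 and Xbp1 to its processing enzyme Ire1 from 2.29 ± 0.10 to 3.38 ± 0.02 (SD, n = 3). Ire1 to PEK, the pair of ER kinases, moved from -0.14 ± 0.06 to 0.77 ± 0.04. Against Atf6, Ire1 moved from 0.02 ± 0.04 to 0.54 ± 0.19. In 14 of the 15 pairs there was no overlap between tissues, which held for 80.7% of all pairs among the 10930 tested genes with counts in every library. An exact two-sided permutation test gave p = 0.1 for each of these 14, the smallest that 3 against 3 libraries allow, with an adjusted p of 0.107 over the 15 pairs. The exception was Ire1 to crc, at -2.27 ± 0.05 in B-D and -2.16 ± 0.11 in SG (exact permutation p = 0.2).

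The order of the levels per kb of exon differed between tissues. In B-D, Xbp1 (73.5 ± 4.53 CPM per kb, SD, n = 3) and crc (72.7 ± 3.48) came first and did not differ beyond their spread. PEK (16.5 ± 0.518) followed, then Ire1 (15.01 ± 0.187) and Atf6 (14.8 ± 0.620), which overlapped, and CrebA came last (7.57 ± 1.20). In SG the order was Xbp1 (334 ± 18.9 CPM per kb), crc (143 ± 7.76), CrebA (87.8 ± 39.7), Ire1 (31.99 ± 1.36), Atf6 (22.1 ± 3.20) and PEK (18.7 ± 1.00), and no neighbours in it overlapped. CrebA therefore went from the last to the third place. Its level was above that of 49.7% of the genes tested in B-D and of 91.6% in SG, both per kb, while PEK was above 72.7% and 70.2%. If reads shared with CG46314 were not counted, only 908 bases of crc exons remain, and crc would then be at 274 ± 13.1 CPM per kb in B-D and 539 ± 29.2 CPM per kb in SG (SD, n = 3), above Xbp1 in both tissues. This length was tried after the data were seen.

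CrebA also varied more among SG libraries than the other members did. Its SD of log2 CPM was 0.64 in SG and 0.22 in B-D, where the medians over all genes tested were 0.26 and 0.11. Of the genes tested, 80.3% had a smaller SD than CrebA in SG and 77.3% in B-D. Atf6 had an SD of 0.20 in SG, and Xbp1, Ire1, PEK and crc had SDs of 0.06 to 0.08, with 6.05% to 10.04% of the genes tested having a smaller one.

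The SG libraries differed in other transcripts too. The summed level of 10 salivary gland markers was 17056, 31191 and 71725 CPM in SG replicates 1 to 3, lowest and highest in the same libraries as CrebA. This order lay mainly in the Sgs glue protein genes. The most abundant gland marker in replicate 1, ng3, was at 12840, 13170 and 11121 CPM and ng2 at 1667, 2142 and 1705 CPM. By contrast, ng1 rose in the order of the sum, at 1920, 2590 and 2739 CPM. Among the list the glue protein gene Sgs3, which is switched on during the third instar, was at 11.4, 2284 and 9449 CPM. The gland transcription factor gene sage was at 245, 262 and 579 CPM, with replicates 1 and 2 close together and replicate 3 well above them. The summed fat body markers were highest in replicate 1 and lowest in replicate 3, at 279369, 226701 and 187314 CPM, a sum carried by the larval serum protein genes. Members of the same list differed: Fbp1 was at 23.6, 135 and 642 CPM, highest in replicate 3 like CrebA, Fbp2 was at 1087, 900 and 1579 CPM, and apolpp was between 22666 and 23854 CPM. Neuron markers were at 257, 168 and 317 CPM in SG replicates 1 to 3. The part of larval age or of fat body RNA in the spread of CrebA was not tested.

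**Figure D3:**
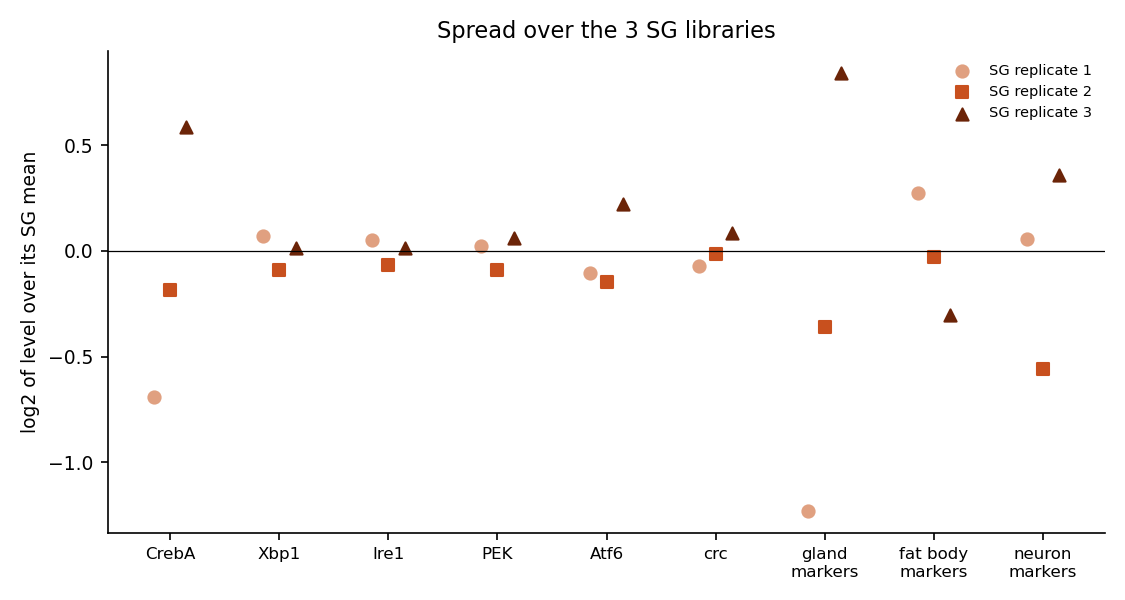
Log2 of the level in each of the 3 SG libraries over the SG mean, for the 6 genes and for the summed CPM of salivary gland, fat body and neuron markers. CrebA and the summed gland markers are lowest in replicate 1 and highest in replicate 3, the summed fat body markers show the opposite order, and Xbp1, Ire1, PEK and crc lie close to 0.

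Lists of 10 kinds, from secretory pathway genes to other bZIP factors and salivary gland regulators, were read by counts of calls and medians. Not all of their genes are targets of the members. Across the lists 101 of 118 genes tested were higher in SG and 7 lower, where 34.5% and 35.3% of all genes were and the median log2 fold change of all genes was -0.03. With library size as the only scale these counts were 64 and 20, where 14.0% of all genes were higher and 62.5% lower. The shares of all genes on each scale apply to every list below as well.

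Genes that bring proteins into the ER and carry them on, which CrebA is known to raise in fly embryos, were higher almost without exception. Of the signal recognition, translocation and signal peptidase genes 19 of 20 were higher (median log2 fold change 2.49), and 19 of 20 were also higher with library size alone. TRAM, a protein of the translocation channel, went from 53.6 ± 6.34 to 950 ± 39.1 CPM (SD, n = 3; log2 fold change 4.15 ± 0.13 SE). The channel subunit gene Sec61beta was at 2.79 ± 0.10 SE and the signal recognition particle gene Srp54k at 2.38 ± 0.09 SE. The exception, Srp54 (-0.64, adjusted p = 0.00715 by edgeR), bears a like name but encodes a splicing factor of the SR family. It was singled out after its value was seen. Of 24 genes for traffic between ER and Golgi 24 were higher (median 2.44), and 22 with library size alone. The cargo receptor genes eca (3.13 ± 0.09 SE) and p24-1 (3.26 ± 0.12 SE) and the COPI coat gene gammaCOP (2.48 ± 0.09 SE) had the smallest p. Summed traffic genes were at 10153, 10346 and 11650 CPM and summed translocation genes at 8138, 8044 and 7476 CPM in SG replicates 1 to 3.

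Chaperones and degradation genes of the ER, which Xbp1 and Atf6 are known to raise under ER stress in flies or mammals, were higher as well. All 15 tested chaperone and oxidative folding genes were called (median 2.17), and 13 of them with library size alone. Hsc70-3, the ER chaperone BiP that holds the sensors inactive in mammals, was at 614, 536 and 557 CPM in B-D and at 5319, 4683 and 4361 CPM in SG. This is a log2 fold change of 3.07 ± 0.13 SE, greater than that of Xbp1 and smaller than that of CrebA. Its exchange factor gene Sil1 was at 2.74 ± 0.10 SE and the disulfide isomerase gene Pdi at 3.51 ± 0.16 SE. The summed level of this list was highest in SG replicate 1 (18137 CPM) and lowest in replicate 3 (14495 CPM). The summed fat body markers were highest and lowest in the same libraries, at 279369 and 187314 CPM, and CrebA the reverse. Not every fat body marker had this order, as Fbp1 was at 23.6 CPM in replicate 1 and 642 CPM in replicate 3. Summed translocation genes also fell from replicate 1 to 3, while summed traffic genes rose. The part of fat body RNA in the level of the chaperone list was not tested. Of 13 genes for ER-associated degradation 12 were higher, with a lower median of 1.35, among them sip3 (2.09 ± 0.08 SE), the ubiquitin ligase Hrd1, its partner gene Hrd3 (1.55 ± 0.08 SE) and Der-2 (2.40 ± 0.10 SE). With library size alone 4 were higher and 3 lower, and Hrd3 was not called.

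The branch of PEK and crc was mixed. Of 10 genes for eIF2 and the control of its phosphorylation 8 were higher (median 1.15), namely the 3 subunits of eIF2 and the 5 of its exchange factor eIF2B. The exchange factor genes eIF2Bbeta (1.75 ± 0.10 SE), eIF2Bgamma (1.21 ± 0.08 SE) and eIF2Bdelta (1.39 ± 0.11 SE) had the smallest p. The 2 that were not called are the regulators, which were singled out after their values were seen. Gcn2, the other eIF2alpha kinase of the fly, was at 52.7 to 53.6 CPM in B-D and 34.6 to 42.1 CPM in SG (log2 fold change -0.44 ± 0.10 SE). PPP1R15, which directs dephosphorylation of eIF2alpha, was at 33.1 to 35.9 CPM in B-D and 31.1 to 35.3 CPM in SG (-0.07 ± 0.09 SE). With library size alone 1 of the 10 was higher and 2 were lower. All 7 tested genes of the list of reported ATF4 targets were higher (median 1.49). Thor, the translation inhibitor 4E-BP that Foxo raises as well, was at 53.7, 58.6 and 53.6 CPM in B-D and at 943, 1053 and 925 CPM in SG (4.14 ± 0.11 SE). Sesn, which restrains Tor signalling, was at 1.97 ± 0.09 SE and the bZIP gene Xrp1 at 1.52 ± 0.09 SE. Only Thor and Sesn of the 7 were higher with library size alone, and 1 gene was lower.

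With TMM scaling the Ire1 partners went both ways, whereas genes that act with Atf6 were higher in SG or not called. Of 6 Ire1 partners 3 were higher and 2 lower, where 34.5% of all genes tested were higher and 35.3% lower. Archease (1.42 ± 0.11 SE), a cofactor of the RNA ligase that joins Xbp1 exons in mammals, and hep (1.28 ± 0.08 SE), the kinase upstream of JNK, were higher. Traf4, an adaptor of JNK signalling, went from 23.3 ± 2.53 to 7.97 ± 1.09 CPM (SD, n = 3; -1.55 ± 0.15 SE) and the JNK gene bsk was at -0.64 ± 0.09 SE. The ligase gene RtcB itself was at 20.2, 17.6 and 15.6 CPM in B-D and at 54.7, 37.5 and 25.4 CPM in SG (adjusted p = 0.0113 by edgeR), with replicate 1 the highest, where CrebA was lowest. With library size alone 0 of the 6 were higher and 3 lower, where 14.0% of all genes were higher and 62.5% lower. Of the 4 genes for release of membrane-bound transcription factors, SREBP (1.35 ± 0.16 SE), itself such a factor in lipid synthesis, and the protease gene S2P (0.62 ± 0.09 SE) were higher. The protease gene S1P was not called, at 14.9 to 16.9 CPM in B-D and 14.6 to 16.4 CPM in SG (-0.08 ± 0.10 SE), nor was SCAP (0.49 ± 0.08 SE). With library size alone 0 of these 4 were higher and 2 lower.

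No other bZIP factor on the list was as much higher in SG as CrebA or Xbp1. Of 14 tested, 9 were higher and 2 lower, where 34.5% of all genes were higher and 35.3% lower. The rises were at most 1.52 on the log2 scale for Xrp1. Next were the clock gene vri (1.43 ± 0.09 SE) and Irbp18, the partner of Xrp1 (1.35 ± 0.10 SE). The 2 lower factors were tj, at -3.61, and gt, at -1.67, both at low levels. The level of tj was 2.57 to 3.82 CPM in B-D and 0.16 to 0.38 CPM in SG. That of gt was 4.39 to 5.09 CPM in B-D and 1.02 to 2.00 CPM in SG. With library size alone 0 of the 14 were higher and 5 lower, where 14.0% of all genes were higher and 62.5% lower. Against the same shares of all genes, 3 of 6 transcription factors of the salivary gland were higher and 2 lower. With library size alone these counts were 3 and 3. Among these 6 factors fkh, which maintains CrebA in the embryonic gland, was at 18.0, 18.0 and 21.3 CPM in B-D. In SG it was at 215, 211 and 237 CPM. Its log2 fold change of 3.53 ± 0.11 SE was close to the 3.54 of CrebA, but its SG libraries were close together. The gland regulator sens was higher (4.51 ± 0.28 SE) and the Hox cofactor genes hth (-2.85 ± 0.24 SE) and exd (-0.87 ± 0.11 SE) lower. The Hox gene Scr, which specifies the embryonic gland, was at 14.4 to 22.7 CPM in B-D and 8.84 to 15.1 CPM in SG and was not called (-0.66 ± 0.26 SE, adjusted p = 0.0578 by edgeR).

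**Figure D4:**
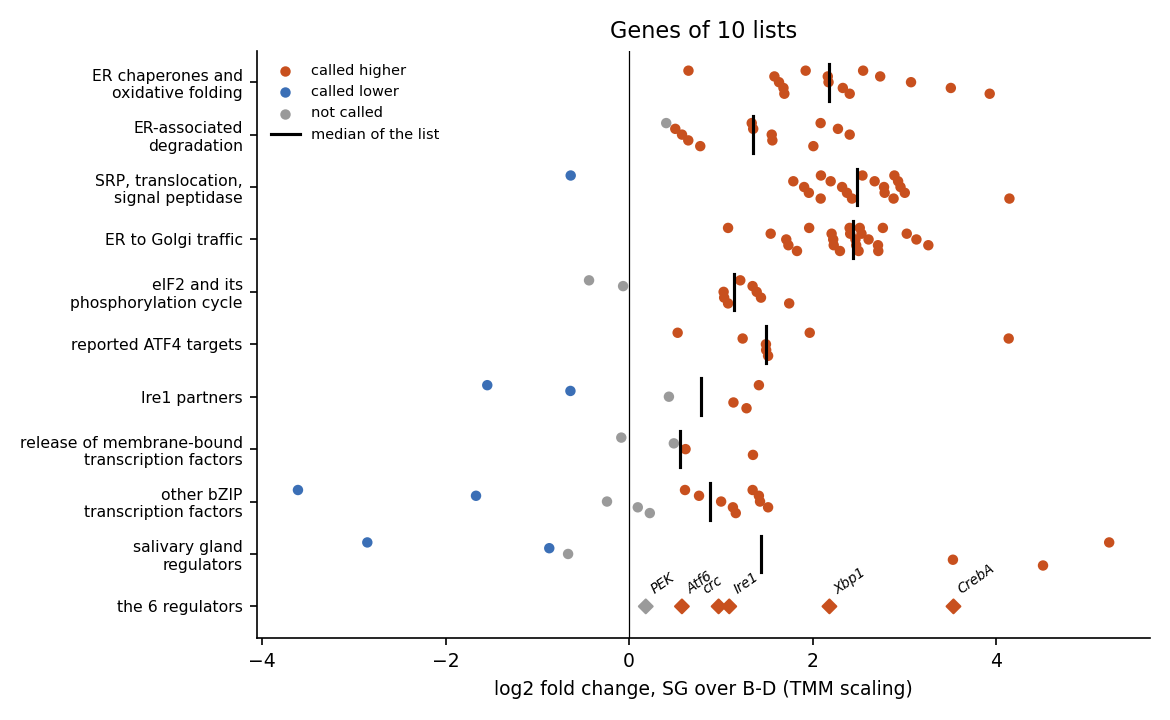
Log2 fold change of SG over B-D with TMM scaling for each tested gene of 10 lists and for the 6 regulators (diamonds), coloured by call, with a black bar at each list's median. All genes for ER chaperones and for ER to Golgi traffic lie to the right of 0, with medians of 2.17 and 2.44, and PEK and Atf6 lie to the left of all of them.

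The genes nearest to each member were found by the root mean square difference of log2 CPM, centred per gene, over the 6 libraries, a measure that the tissue difference dominates. CrebA had no close neighbour: the nearest were MFS18 (difference 0.18), Pgant7 (0.20) and CG43861 (0.21). Pgant7 encodes an enzyme that starts O-linked glycosylation, and it was at 309, 289 and 582 CPM in SG replicates 1 to 3, with replicate 3 highest as for CrebA. Xbp1 was followed closely by CG8237 (0.03), CG7556 (0.04) and Pal1 (0.04), a lyase in peptide amidation. Ire1 was followed by drosha (0.03), the nuclease of microRNA processing, Ccdc58 and rnh1, PEK by Klc (0.03), CG3402 and TSG101, Atf6 by CG10979 (0.03), CaMKI and CG40191, and crc by SamDC (0.03), CycG and Reps. CaMKI was highest in SG replicate 3 (449 CPM against 350 and 345), as Atf6 was.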

How the data were processed

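Polyadenylated RNA of 3 SG and 3 B-D samples, which the study calls biological replicates, was made into stranded libraries and sequenced as single-end reads. The authors checked reads with FastQC 0.11.5, aligned them with STAR 2.6.1a to the Release 6 fly genome, counted them over exons with featureCounts, and deposited whole-number counts per gene with no normalization, beside each gene's exon length. The strand setting is not given in the sources used here. Their own comparison of the tissues (fold changes and p-values from DESeq2 1.14.1) was deposited too and was not used here.

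From the counts, edgeR 4.0.16 (R 4.3.3) was run with filterByExpr, TMM scaling, and a quasi-likelihood F test with tissue as the only term across all 11369 genes kept. Alternatives were DESeq2 1.42.0, limma-voom (limma 3.58.1), 3 other scalings, 2 other filters, a replicate block, each library left out, and SG replicate 2 alone. The fitting tools were also run on simulated counts with equal numbers of genes raised and lowered, which does not bear on the choice of scale. CPM per kb uses the deposited length. Overlaps and coordinates come from the Ensembl annotation of Release 6, whose exon lengths for the 6 members equal the deposited ones. Log2 CPM has a prior count of 2. List symbols were matched by symbol, current symbol or RefSeq synonym, and 4 pathway symbols were not matched.

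The members and lists were chosen with earlier results of these data known, and lists were not tested as sets. Named genes are the 6 members, the 3 called genes of smallest p in each list and the 3 nearest genes of each member. Further ones were chosen after their values were seen: Srp54, Gcn2, PPP1R15, bsk, RtcB, S1P, SCAP, tj, gt, sage, exd, Scr, Sgs3, ng1, ng2, ng3, Fbp1, Fbp2 and apolpp. P-values weigh the difference between the tissues against the spread between these libraries.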

Additional observations from a re-analysis of the deposited data

How the results depend on the processing

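CrebA and Xbp1 were called higher under every alternative run. With library size as the only scale, members called higher went from 5 to 2 and members called lower from 0 to 2, and the log2 fold changes reversed for Ire1 (-0.0054), PEK (-0.91), Atf6 (-0.52) and crc (-0.12). On that scale list genes called higher went from 101 to 64 and lower from 7 to 20. Of all genes tested, 14.0% were higher and 62.5% lower on it, against 34.5% and 35.3% with TMM. Upper quartile scaling put PEK at -0.0052 and Atf6 at 0.39. Atf6 also lost its call with at least 10 counts required in every library (0.43) and with SG replicate 2 alone (0.45). With each library left out in turn, CrebA ranged from 3.14 to 3.80, Xbp1 from 2.16 to 2.27, Ire1 from 1.07 to 1.15, PEK from 0.17 to 0.25, Atf6 from 0.47 to 0.67 and crc from 0.95 to 1.05. Members called higher then numbered 4 to 5 and list genes called higher 99 to 102. Differences between members kept their sign in all 15 pairs when any library was left out. Without a length term, the place of Xbp1 in B-D moved to 2 and that of crc to 1, and in SG Atf6 moved to 6 and PEK to 5. With only the crc exon bases outside CG46314, crc moved to 1 and Xbp1 to 2 in both tissues.

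Same-numbered libraries deviated together at correlations of 0.330, 0.0769 and 0.222, and B-D replicate 2 correlated best with SG replicate 3 (0.229). The summed gland markers rose from replicate 1 to 3 in both tissues, at 228, 252 and 757 CPM in B-D. Members of that list differed in B-D. The Sgs genes rose from replicate 1 to 3, with Sgs3 at 0.242, 29.5 and 35.3 CPM. By contrast, ng1, ng2 and ng3 were lowest in replicate 2, with ng3 at 171, 50.1 and 193 CPM. The summed fat body markers, at 4408, 749 and 1700 CPM in B-D, did not have the same order in both tissues. Although the tissues came from the same larvae, the labels do not say that a number marks shared larvae, so numbers were not taken as pairs. With a replicate block 3893 genes were higher and 3985 lower against 3924 and 4010 without it, and no member changed its call, with CrebA at 3.45. Library size alone moved the median log2 fold change of all genes by -1.10, and the cause of these dependences was not tested.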
